A study of Mus musculus with 36 samples.

Results

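Mouse embryonic stem cells (mESCs) kept for 48 h in serum, with neither LIF nor PD03 in the medium, were compared between soft and stiff substrates. The comparison uses 6 of the 36 RNA sequencing libraries of the study, 3 from soft and 3 from stiff substrates, chosen by their labels alone. All the cells were of 1 wild-type line, labelled 129m wt, and no group carried an engineered allele. The substrates were StemBond hydrogels, polyacrylamide gels to which a matrix protein was tethered covalently, and both had the same, intermediate density of tethering points, so that they differed in stiffness. LIF acts on STAT3 to maintain self-renewal, and PD03 blocks MEK, the kinase that activates ERK. The question was how the transcriptome differed between soft and stiff substrates when neither signal was set by an added factor. Libraries from the same substrates in serum + LIF for 24 h or 48 h and in serum + PD03 for 48 h served to show where the serum comparison differed.

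Pluripotency in the mouse runs from a naïve state, held by a network of transcription factors that includes NANOG, ESRRB, KLF4 and TFCP2L1, to a formative state in which these factors decline and genes such as Pou3f1 and Dnmt3b rise. Cells sense stiffness through integrins, which bind the matrix, and through focal adhesions, which couple integrins to contractile actin bundles. Tension on those bundles is known to act on transcription through YAP, a co-activator of the TEAD factors, and through MRTF, a co-activator of serum response factor (SRF), whose targets include smooth muscle actin and its partners.

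Total counts were between 19694142 and 20360811 in the soft libraries and between 14848601 and 26635239 in the stiff libraries, and 17702 genes had enough counts to be tested. Library numbers are names only, since nothing in the count table ties a column to a replicate. The 3 soft libraries were all sequenced in the pool numbered 3 and the 3 stiff libraries in the pool numbered 2, so substrate and sequencing pool cannot be told apart within them. Mitochondrially encoded genes held 1.06% to 1.31% of the counts in soft libraries and 0.574%, 1.2% and 1.34% in stiff libraries, the lowest share being that of stiff library 2. The counts of that library also stood further from those of the other stiff libraries (chi-square per gene 13.4 and 10.3) than any other pair within a substrate stood apart (4.0 to 6.75). Markers of embryonic stem cells, the sum of Pou5f1, Sox2, Nanog, Zfp42 and Esrrb, reached 1954 to 2029 CPM (counts scaled to the library total) on soft and 1668 to 1771 CPM on stiff substrates, so the cells carried the markers of their label in all 6 libraries.

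On soft substrates, 368 genes were higher and 490 were lower than on stiff substrates at an adjusted p under 0.05 in edgeR's quasi-likelihood test. An unadjusted p under 0.05 was reached by 2778 genes (15.7%). Together the 858 genes were 4.85% of those tested, 2.08% higher and 2.77% lower. The changes were mostly small. The median log2 fold change (soft minus stiff throughout) was 0.32 among the higher genes and -0.39 among the lower genes, against 0.00 over all tested genes. Changes of at least 1.5-fold were more frequent downwards, with 56 higher and 137 lower genes, and at least 2-fold changes were seen in 12 higher and 33 lower genes. The soft and stiff libraries did not overlap for 843 of the 858 genes, where 20.4% of all tested genes showed no overlap. Protein-coding genes made up 358 of the higher and 481 of the lower genes.

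**Figure D1:**
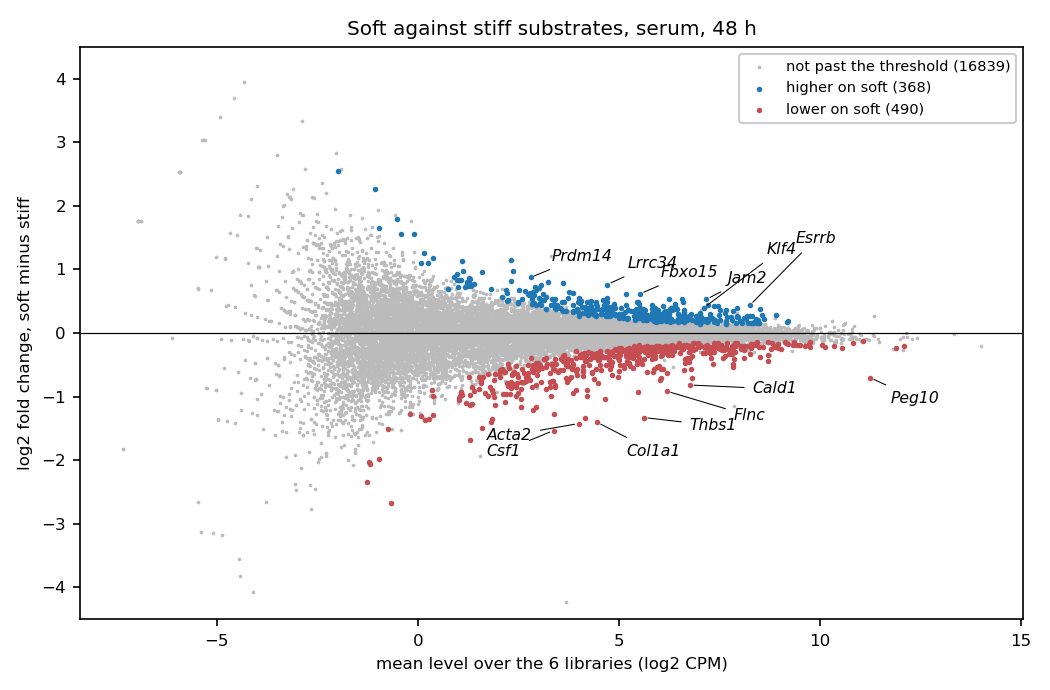
Log2 fold change, soft minus stiff, against the mean level over the 6 libraries on a log2 CPM scale, 1 point per tested gene with a count in these libraries, for 48 h in serum. Blue points are the 368 genes past the threshold and higher on soft substrates, red points the 490 that were lower, and the lower genes reach further from 0 at levels where named genes such as Thbs1, Acta2, Col1a1 and Csf1 lie.

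The number of calls depended on single libraries and on the pools. Without soft library 2 there were 546 calls, 237 higher and 309 lower. The lower calls came to 271 without stiff library 2, and the higher calls to 235 without stiff library 1. A set of 344 genes passed in each of the 6 fits that left out a library. With sequencing pool as a term over all 36 libraries, between 173 and 384 genes passed over the 45 ways in which the columns of groups spread over pools could be assigned. The calls of 79 genes held in all 45 fits and those of 653 in at least 1, and 835 of the 858 genes kept their sign in every one. Pools 2 and 3 are linked only by soft serum + PD03, with 2 libraries in pool 2 and 4 in pool 3. At most 1 of the 45 assignments is right. The number of pool fits a call passed, given below, therefore does not measure the effect of pool in serum. In bulk RNA, a change in the share of cells that express a gene and a change in its RNA per cell cannot be told apart. For each gene named below as risen or fallen in serum, the call held without any 1 library and in all 45 pool fits unless the text says otherwise.

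Naïve pluripotency factors were higher on soft substrates. Of 16 such genes, 12 rose and none fell (median log2 fold change 0.36), and the study itself displayed naïve factors from these libraries, so the count is not independent evidence of their direction. Prdm14, a repressor of FGF signalling and DNA methylation that lies on chromosome 1 (13113457-13127163, GRCm38), was at 8.29, 8.98 and 9.64 CPM in soft libraries 1 to 3 and at 4.298, 5.2 and 5.48 CPM in stiff libraries 1 to 3. This was the largest change of the list, a log2 fold change of 0.87 (SE 0.14, adjusted p = 1.11e-05). Esrrb, an orphan nuclear receptor at the centre of the naïve network, was measured at 338, 367 and 349 CPM on soft and 246, 270.3 and 263 CPM on stiff substrates. It rose by 0.44 (SE 0.046, adjusted p = 1.35e-09), and the lowest soft library stood well clear of the highest stiff library. Klf4, a Krüppel-like factor downstream of LIF and STAT3, gave 159, 156 and 156 CPM on soft and 113, 121 and 124 CPM on stiff substrates, again without overlap (log2 fold change 0.40, SE 0.047, adjusted p = 2.82e-08).

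The remaining naïve factors that rose did so by similar amounts. Tbx3, a T-box factor, gained 0.46 on the log2 scale (SE 0.051, adjusted p = 7.19e-09). Tfcp2l1, a STAT3 target able to sustain self-renewal, gained 0.42 (SE 0.051, adjusted p = 4.18e-08). Nr5a2, a nuclear receptor that acts on Pou5f1, gained 0.36 (SE 0.048, adjusted p = 2.99e-07). These 3 genes, with Prdm14, Esrrb and Klf4, were the 6 whose calls held in all 45 pool fits. Nanog, the homeobox factor that gates the naïve state, was at 214, 235 and 230.4 CPM on soft and 174, 168 and 186 CPM on stiff substrates, a change of 0.36 (adjusted p = 1.49e-05) that passed in 38 pool fits. Klf2 rose by 0.42 and passed in 44, Tcl1 by 0.46 and passed in 23, and Zfp42, also called Rex1, by 0.28 and passed in 20. The changes of Tdh (0.22) and Nr0b1 (0.21) passed in no pool fit, and the adjusted p reached 0.0713 for Tdh without stiff library 1 and 0.193 for Nr0b1, which held only without stiff library 2. The 4 naïve genes that did not pass were Klf5 (-0.032, adjusted p = 0.873), Fgf4 (0.076, adjusted p = 0.601), Dppa3 (0.14, adjusted p = 0.548) and Gbx2 (-0.059, adjusted p = 0.726).

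The factors shared by all pluripotent states differed less. Pou5f1, which encodes OCT4, was at 565, 595 and 583 CPM on soft and 562, 606 and 561 CPM on stiff substrates, a log2 fold change of 0.012 with an SE of 0.067 (adjusted p = 0.959), and the libraries overlapped. Of the 6 general pluripotency genes only Sox2 passed, with a change of 0.17 (adjusted p = 0.0162, 12 pool fits), and it was lost without soft library 1, soft library 3, stiff library 1 or stiff library 3 (adjusted p up to 0.168).

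**Figure D2:**
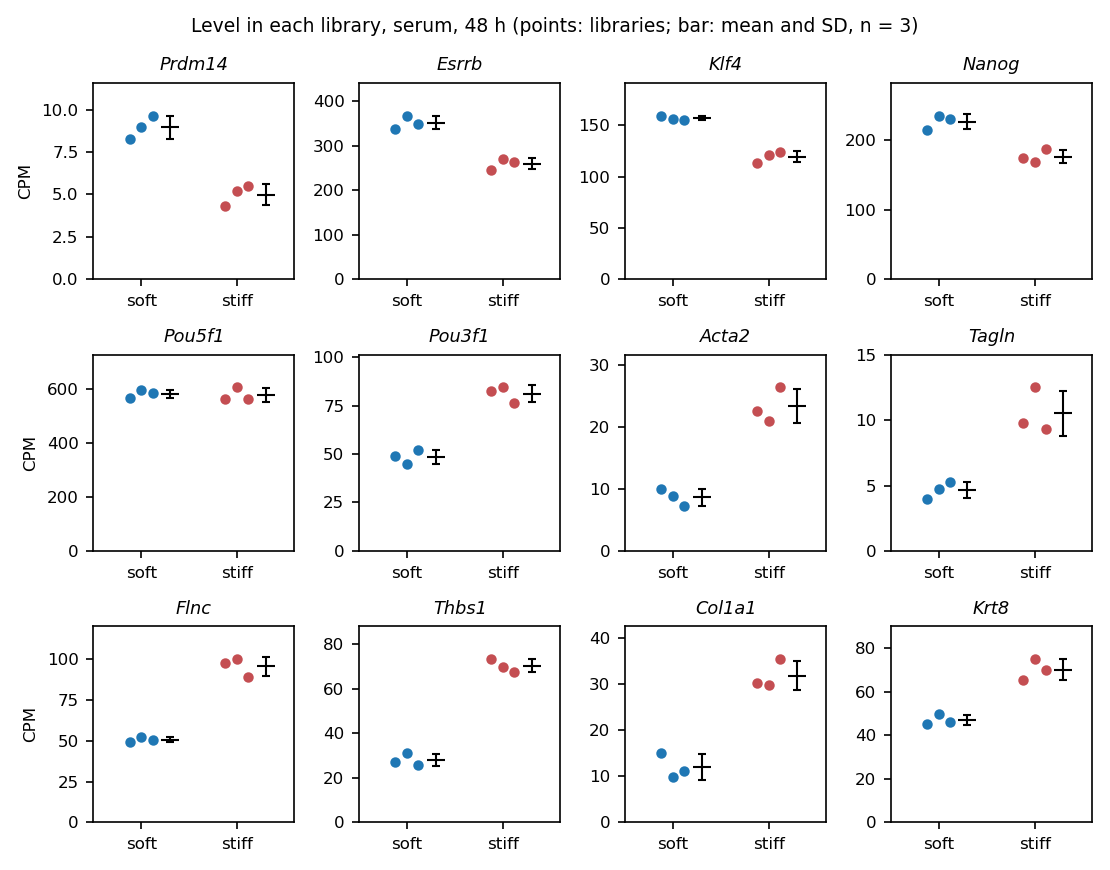
Level in CPM (linear axis from 0) of 12 genes in each of the 3 soft (blue) and 3 stiff (red) libraries, 48 h in serum, with the mean and SD of each group beside the points. Prdm14, Esrrb, Klf4 and Nanog lie higher in all soft libraries, Pou5f1 overlaps, and Pou3f1, the contractile genes, Thbs1, Col1a1 and Krt8 lie lower in all soft libraries.

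Of 11 genes of the formative epiblast, 4 fell, none rose and 7 did not pass (median -0.28). Pou3f1, also called Oct6, a POU factor of the formative and early neural epiblast (chromosome 4, 124656807-124660655), was at 49.2, 44.7 and 51.96 CPM on soft and 82.5, 84.5 and 76.2 CPM on stiff substrates. It fell by 0.74 (SE 0.084, adjusted p = 1.44e-08) and passed in 27 of the 45 pool fits. Dnmt3b, a de novo DNA methyltransferase, fell by 0.37 (adjusted p = 1.97e-05, 21 pool fits), Lef1, a Wnt effector, by 0.52 (adjusted p = 1.61e-05, 3 pool fits) and Cdh2, N-cadherin, by 0.36 (adjusted p = 0.00436, 5 pool fits). None of the 4 calls held in all pool fits, and the fitted change of Lef1 was between -1.32 and 0.022 over them. Otx2, which opens enhancers of the formative state, changed by -0.15 (adjusted p = 0.466), and Fgf5, the usual marker of that state, was at 2.57, 2.11 and 2.75 CPM on soft and 4.15, 4.37 and 4.81 CPM on stiff substrates without passing (log2 fold change -0.84, SE 0.29, adjusted p = 0.0922).

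Gene clusters that the study listed from sequenced mouse embryos were also split by direction. The study itself compared these clusters between soft and stiff substrates in several media, serum among them, so the counts are not independent evidence. Of 137 tested genes of the pre-implantation epiblast, 23 were higher on soft substrates and 4 lower (median 0.10). Of 197 tested genes of the post-implantation epiblast, 5 were higher and 40 lower (median -0.13). The 23 became 15 without soft library 2 and 14 without stiff library 1 or stiff library 3, and the 40 became 25 without soft library 2 and 24 without stiff library 2. With pool as a term, 5 to 11 of the pre-implantation genes were higher and 8 to 21 of the post-implantation genes were lower. Lrrc34, a leucine-rich repeat protein of pluripotent cells, rose among the pre-implantation genes, being at 35.7, 30.02 and 32.7 CPM on soft and 18.1, 19.97 and 20.4 CPM on stiff substrates (0.76, SE 0.089, adjusted p = 2.36e-08). Against the direction of their cluster, the metallothioneins Mt1 and Mt2, which buffer zinc and copper, fell by 0.49 (adjusted p = 3.13e-07) and 0.54 (adjusted p = 2.76e-07). Among the post-implantation genes, Sema6a, a transmembrane semaphorin, was at 32.1, 25.4 and 34.5 CPM on soft and 60.5, 55.2 and 58.3 CPM on stiff substrates. Its fall by 0.92 (SE 0.095, adjusted p = 8.62e-10) left no overlap between the libraries.

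Contractile genes were lower on soft substrates. Of 19 tested, 12 fell and none rose (median -0.34), and 18 of the 19 had a negative sign. The study showed several of them as examples from these libraries. Acta2, smooth muscle alpha-actin (chromosome 19, 34241090-34255590), was at 9.92, 8.89 and 7.19 CPM on soft and 22.6, 21.01 and 26.4 CPM on stiff substrates. The log2 fold change was -1.42 (SE 0.14, adjusted p = 3.48e-10). Tagln, transgelin, a partner of smooth muscle actin, was at 3.996, 4.76 and 5.25 CPM on soft and 9.79, 12.5 and 9.34 CPM on stiff substrates (-1.17, SE 0.14, adjusted p = 4.92e-08). Acta1, the skeletal muscle actin, was at 2.91, 3.41 and 2.397 CPM on soft and 6.39, 6.17 and 5.82 CPM on stiff substrates (-1.08, SE 0.16, adjusted p = 5.25e-06). Acta2 and Tagln are among the genes with the largest falls, taken only where the libraries did not overlap, so their separation is no result.

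Partners of actin fell as well. Flnc, filamin C, an actin cross-linker, was at 48.99, 52.5 and 50.7 CPM on soft and 97.5, 100.3 and 89.2 CPM on stiff substrates (-0.92, SE 0.07, adjusted p = 1.82e-13). Cald1, caldesmon, which restrains actomyosin, was at 78.6, 76.04 and 81.6 CPM on soft and 135, 135 and 146 CPM on stiff substrates (-0.82, SE 0.067, adjusted p = 1.74e-12). The general cytoskeleton changed by less, with Tpm1, a tropomyosin, at -0.48 (adjusted p = 3.55e-10) and Myh9, the non-muscle myosin heavy chain, at -0.35 (adjusted p = 6.68e-07). These 7 genes were those whose calls held in all 45 pool fits, in which 7 to 11 members of the list passed. Of the other 5, Tpm2 fell by 0.34, Tpm4 by 0.32 and Flna by 0.24, and they passed in 21, 20 and 15 pool fits. Cnn2 fell by 0.27 and passed in 12, but not without stiff library 2 (adjusted p = 0.0734). Cnn1, calponin, fell by 0.79 (adjusted p = 0.00872), passed in 9 pool fits, and was lost without soft library 2, soft library 3 or stiff library 2 (adjusted p up to 0.109). In a separate list of 30 general regulators of actin, 7 fell by 0.15 to 0.23 and none rose, and that count dropped to 3 without soft library 1, 4 without soft library 2 or soft library 3, and 1 without stiff library 2.

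Promoters are shown for 4 of the genes that fell, the contractile genes Acta2, Acta1 and Flnc and the YAP and TEAD target Axl, because they hold a motif of the factors through which tension is known to act and changed most among such genes. Each line gives 250 bases before and 50 bases after a RefSeq transcription start in GRCm38.p6, 5′ to 3′ on the strand of the gene. Capitals mark the CArG box, which SRF binds, sought only in its exact form, CC and GG around 6 letters that are each A or T, and the TEAD motif GGAATG, or its reverse complement CATTCC, sought on both strands.
Acta2, chr19:34255324-34255623, minus strand: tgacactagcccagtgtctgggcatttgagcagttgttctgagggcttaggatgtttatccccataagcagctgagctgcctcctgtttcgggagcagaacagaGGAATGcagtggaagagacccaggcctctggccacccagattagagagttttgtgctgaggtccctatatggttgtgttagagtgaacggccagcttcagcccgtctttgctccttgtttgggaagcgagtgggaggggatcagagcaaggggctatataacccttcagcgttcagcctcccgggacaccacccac
Acta1, chr8:123894726-123895025, minus strand: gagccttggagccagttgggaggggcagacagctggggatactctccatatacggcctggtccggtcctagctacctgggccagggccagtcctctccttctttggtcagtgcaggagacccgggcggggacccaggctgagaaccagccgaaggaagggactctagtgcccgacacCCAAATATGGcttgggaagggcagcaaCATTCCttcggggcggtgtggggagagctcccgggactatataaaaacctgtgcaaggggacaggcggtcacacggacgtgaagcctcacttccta
Flnc, chr6:29432903-29433202, plus strand: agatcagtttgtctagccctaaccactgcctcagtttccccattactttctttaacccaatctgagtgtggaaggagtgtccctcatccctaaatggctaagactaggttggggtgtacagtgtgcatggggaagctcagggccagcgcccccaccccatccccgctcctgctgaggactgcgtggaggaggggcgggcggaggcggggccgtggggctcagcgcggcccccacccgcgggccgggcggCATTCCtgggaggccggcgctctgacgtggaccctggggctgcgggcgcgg
Axl, chr7:25788684-25788983, minus strand: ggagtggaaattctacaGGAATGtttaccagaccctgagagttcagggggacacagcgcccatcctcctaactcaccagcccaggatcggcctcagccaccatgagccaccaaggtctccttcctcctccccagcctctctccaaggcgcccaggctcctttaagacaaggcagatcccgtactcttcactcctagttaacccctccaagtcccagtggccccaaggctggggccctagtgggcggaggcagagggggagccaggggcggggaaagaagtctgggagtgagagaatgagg

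The Acta1 window held a CArG box, written CCAAATATGG, and a TEAD motif that did not overlap it, and the other 3 windows held a TEAD motif each. Forms of the CArG box with 1 letter off are not marked, of which the Acta2 and Acta1 windows held 2 each and the Flnc window 1, and at least 1 was present in 19.9% of all windows. Of the 12 contractile genes that fell, 11 had a window, 6 of them with a TEAD motif and 2, Acta1 and Cnn2, with a CArG box. The 7 contractile genes that did not fall all had a window, 3 with a TEAD motif and 3 with a CArG box. Over all 32851 windows of the table, 14.7% held the TEAD motif and 1.63% the CArG box. Of the YAP and TEAD genes with a window, 5 of 8 that fell and 6 of 7 that did not fall held a TEAD motif. Among genes with a window, the TEAD motif was held by 20.9% of those lower on soft, 20.2% of those higher and 14.8% of all tested. For the CArG box these shares were 2.82%, 1.39% and 1.63%. A window existed for 72.2% of the lower genes, 78.0% of the higher genes and 67.7% of all tested genes (11990 of 17702). The shares were not tested. A match describes the letters in this window and is no evidence of binding.

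Of 21 tested targets and components of the YAP and TEAD pathway, 10 fell, none rose and 11 did not pass (median -0.31), with 4 to 7 calls in the pool fits. Thbs1, thrombospondin 1, a matrix glycoprotein and YAP target (chromosome 2, 118111876-118127133), was at 27.2, 30.9 and 25.8 CPM on soft and 73.4, 69.8 and 67.6 CPM on stiff substrates. The change of -1.33 (SE 0.079, adjusted p = 2.23e-17), 2.51-fold higher on stiff, had the smallest p of all tested genes. Ccn1, also called Cyr61, a matricellular protein and standard readout of YAP, was at 42.6, 44.3 and 48.9 CPM on soft and 66.5, 70.9 and 71.5 CPM on stiff substrates (-0.62, SE 0.095, adjusted p = 8.25e-06, 42 pool fits). Its relative Ccn2, also called Ctgf, fell by 0.28 (adjusted p = 0.000186, 27 pool fits). Crim1, a transmembrane regulator of BMPs, fell by 0.66 (adjusted p = 7.08e-06), and Ptpn14, a phosphatase that is both a target and an inhibitor of YAP, by 0.44 (adjusted p = 5.66e-07). The receptor tyrosine kinase Axl was at 4.05, 3.03 and 3.42 CPM on soft and 5.79, 6.93 and 6.499 CPM on stiff substrates (-0.86, adjusted p = 0.000647, 17 pool fits). Amotl1 and Amotl2, angiomotin-like inhibitors of YAP, fell by 0.35 (adjusted p = 0.00025, 21 pool fits) and 0.36 (adjusted p = 0.000685, 18 pool fits). The remaining calls were F3, tissue factor, which fell by 0.50 (6 pool fits) and was lost without soft library 3 (adjusted p = 0.0667), and Wwc1, the Hippo regulator KIBRA, which fell by 0.22 (0 pool fits) and was lost without soft library 1, soft library 3 or stiff library 2 (adjusted p up to 0.0979). Ankrd1, another standard readout, was under 1 CPM in all 6 libraries and did not pass (-1.55, SE 0.61, adjusted p = 0.16).

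The adhesion genes that passed went in both directions. Of 37 tested integrin and focal adhesion genes, 13 fell and 3 rose (median -0.20), with 8 to 13 calls of either direction in the pool fits. Zyx, zyxin, a LIM protein that leaves focal adhesions when tension drops, was at 49.97, 49.6 and 50.6 CPM on soft and 75.5, 92 and 77.8 CPM on stiff substrates. It fell by 0.70 (SE 0.065, adjusted p = 4.66e-11). Parva, alpha-parvin, which links integrin-linked kinase to actin, fell by 0.89 (SE 0.10, adjusted p = 9.87e-09), and Lpp, a relative of zyxin, by 0.56 (SE 0.065, adjusted p = 2.59e-08). Among the receptors, the laminin-binding integrin subunit Itga3 fell by 0.59 (SE 0.069, adjusted p = 2.3e-08), while Itgb1, the common beta subunit, fell by 0.25 (adjusted p = 0.00148, 12 pool fits) and was lost without stiff library 2 (adjusted p = 0.071). The adaptors Tln1, talin, and Vcl, vinculin, fell by 0.29 (adjusted p = 7.42e-05, 32 pool fits) and 0.25 (adjusted p = 0.00057, 20 pool fits).

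The 3 adhesion genes that rose were also adaptors. Fblim1, migfilin, which binds filamin and kindlin, was at 275, 279 and 274 CPM on soft and 200.1, 221 and 213 CPM on stiff substrates (0.39, SE 0.049, adjusted p = 1.05e-07). Tns1, tensin 1, was at 22.7, 21.9 and 23.5 CPM on soft and 16.4, 16.6 and 17.8 CPM on stiff substrates (0.42, SE 0.072, adjusted p = 4.49e-05). Parvb, beta-parvin, rose by 0.32 (adjusted p = 0.00036, 18 pool fits), so that the paralogues Parva and Parvb changed in opposite directions.

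The matrix genes that passed were mostly lower. Of 30 tested, 11 fell and 2 rose (median -0.26), and the lower calls came to 7 without soft library 1 and 6 without stiff library 2, and to between 3 and 8 in the pool fits. Col1a1, the alpha 1 chain of type I collagen, was at 15.05, 9.75 and 11.2 CPM on soft and 30.2, 29.7 and 35.5 CPM on stiff substrates. Its change was -1.40 (SE 0.14, adjusted p = 8.62e-10). Col12a1, a fibril-associated collagen, was at 1.87, 1.73 and 1.17 CPM on soft and 5.01, 4.09 and 4.26 CPM on stiff substrates (-1.50, SE 0.23, adjusted p = 1.02e-05). Lama1 and Nid1, components of the basement membrane, were the exceptions and rose by 0.31 (adjusted p = 0.00019, 30 pool fits) and 0.27 (adjusted p = 0.000131, 31 pool fits), while Lamb1, the laminin beta chain, fell by 0.27 (adjusted p = 0.000686, 18 pool fits). Of 19 tested genes that modify or degrade matrix, 6 fell and none rose (median -0.38), and none of those calls held in all pool fits. Among them, Serpinh1, the collagen chaperone HSP47, fell by 0.50 (adjusted p = 3.44e-05, 28 pool fits), Plod2, a collagen lysyl hydroxylase, by 0.40 (adjusted p = 4.82e-05, 30 pool fits) and Loxl2, a lysyl oxidase, by 0.69 (adjusted p = 0.00119, 13 pool fits).

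Type I collagen is also a marker of fibroblasts, a cell type that can be carried over from feeder layers. The 9 fibroblast markers summed to 22.9 to 29.9 CPM on soft and 47.4 to 53.8 CPM on stiff substrates, of which Col1a1 alone made up 9.75 to 15.05 CPM and 29.7 to 35.5 CPM. Of the 9, 7 were tested and 2, Col1a1 and Col1a2, passed, the second (-1.02, 9 pool fits) being lost without soft library 3 (adjusted p = 0.0643). The tested markers that did not pass were Dcn (-1.17), Col3a1 (-1.08), Postn (-1.59), Thy1 (-0.18) and Prrx1 (0.59). In a fibroblast list of 10 tested genes, 3 fell, none rose and 9 had a negative sign (median -0.83). An unadjusted p under 0.05 was reached by 8 of the 10, against 15.7% of all tested genes. None of the 9 was without a count in all 6 libraries, but Lum had 0 to 1 counts per soft library and 1 to 5 per stiff library, and Twist2, Prrx1 and Postn had at most 14 counts in any library. The part of such cells in the collagen result, or in the fall of other genes, was not tested.

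Of 12 tested genes for intermediate filaments and lamins, 6 fell, 1 rose and 5 did not pass (median -0.28), with 4 to 7 calls in the pool fits. Krt8 and Krt18, the partners that form the first filaments of simple epithelia, both fell. Krt8 was at 45.4, 49.8 and 46.1 CPM on soft and 65.6, 75.2 and 69.9 CPM on stiff substrates (-0.57, SE 0.082, adjusted p = 2.3e-06). Krt18 was at 38.97, 43.9 and 39.5 CPM on soft and 62.9, 65.4 and 59.3 CPM on stiff substrates (-0.62, SE 0.075, adjusted p = 6.01e-08). Krt19 was at 12.1, 11.2 and 13.3 CPM on soft and 24.9, 25.3 and 22.9 CPM on stiff substrates (-0.998, SE 0.12, adjusted p = 8.91e-08). No soft library reached a stiff library for Krt8 or Krt18, while for Krt19 this was a condition of its choice as a large fall. Nes, nestin, fell by 0.51 (adjusted p = 2.6e-07), Vim, vimentin, by 0.25 (adjusted p = 8.63e-05, 36 pool fits) and Krt7 by 0.94 (adjusted p = 0.000563, 38 pool fits). Against them, the keratin gene Krt42 rose by 0.54 (adjusted p = 0.000784, 27 pool fits).

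Krt7, Krt8 and Krt18 are shared with the trophectoderm, the outer layer of the blastocyst, whose list of 10 tested genes had 5 lower and 1 higher (median -0.34). Hand1, a basic helix-loop-helix factor of trophoblast and early mesoderm, was at 7.05, 6.196 and 6.63 CPM on soft and 12.5, 12.5 and 14.5 CPM on stiff substrates (-0.98, SE 0.13, adjusted p = 2.15e-07). Tfap2c, an AP-2 factor of trophoblast that naïve cells also use, went the other way at 42.2, 45.5 and 38.04 CPM on soft and 29.6, 34.3 and 29.1 CPM on stiff substrates (0.44, SE 0.065, adjusted p = 3.1e-06). Gata3 fell by 0.36 (adjusted p = 0.0269, 0 pool fits) but was lost whichever library was left out (adjusted p up to 0.13). The 5 trophectoderm markers summed to 21.4 to 23.6 CPM on soft and 34.1 to 35.7 CPM on stiff substrates. Primitive endoderm markers were at 45.6 to 56.3 CPM on soft and 47.3 to 57.8 CPM on stiff substrates, overlapping, and neural markers were at 43.7 to 46.5 CPM and 34.2 to 39.3 CPM.

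Junction genes that passed were mostly lower. Of 35 tested, 11 fell and 2 rose (median -0.16), the lower calls coming to 6 without stiff library 2 and to between 0 and 8 in the pool fits. The plaque proteins Dsp, desmoplakin, and Cgn, cingulin, fell by 0.35 (adjusted p = 1.53e-05, 41 pool fits) and 0.36 (30 pool fits), and Cdh1, E-cadherin, by 0.20 (adjusted p = 0.00331, 3 pool fits), which was lost without stiff library 2 (adjusted p = 0.168). The smallest p in the list belonged to a gene that rose. Jam2, a junctional adhesion molecule, was at 178, 173 and 161 CPM on soft and 117, 117 and 121 CPM on stiff substrates (0.53, SE 0.046, adjusted p = 9.74e-12). It was higher in every soft library than in any stiff library.

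**Figure D3:**
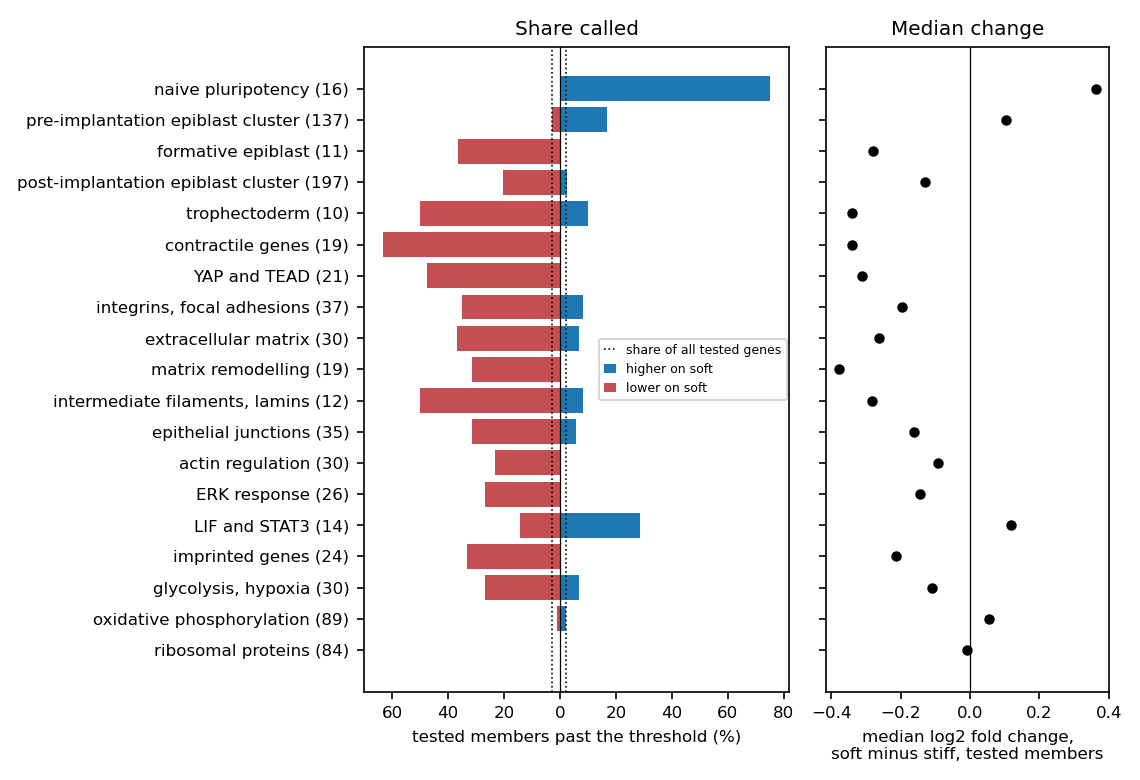
Share of the tested members of each gene list (number tested in brackets) past the threshold, to the right for higher and to the left for lower on soft substrates, with dotted lines at the shares of all tested genes (2.08% and 2.77%), and beside it the median log2 fold change of the tested members. Naïve genes stand out to the right with 12 of 16, contractile genes to the left with 12 of 19, and ribosomal proteins lie at 0.

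ERK feedback and immediate-early genes had calls in 1 direction, few of which held over the pools. Of 26 tested, 7 fell and none rose (median -0.14), and 0 to 3 passed in the pool fits. Dusp4, a nuclear phosphatase that switches off ERK, was at 22.6, 23.4 and 26.2 CPM on soft and 36.9, 41.1 and 39.4 CPM on stiff substrates (-0.70, SE 0.096, adjusted p = 8.88e-07, 21 pool fits). Dusp1, a phosphatase of the stress kinases and ERK, fell by 0.55 (adjusted p = 7.5e-06, 40 pool fits), Phlda1 by 0.51 (adjusted p = 6.32e-05, 21 pool fits) and Spry1, a receptor feedback inhibitor, by 0.49 (adjusted p = 0.000686, 8 pool fits). Dusp6, the usual readout of ERK activity, changed by -0.25 and did not pass (adjusted p = 0.0523).

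The 14 tested genes of LIF and STAT3 signalling split, with 4 higher and 2 lower (median 0.12). Besides Klf4 and Tfcp2l1, Socs3, the feedback inhibitor of JAK, rose by 0.44 (adjusted p = 2.73e-05, 37 pool fits). Stat3 itself rose by 0.23 (adjusted p = 0.00733, 6 pool fits) and was lost without soft library 2 or stiff library 1 (adjusted p up to 0.136). The kinase gene Pim2, also a STAT3 target, was at 90.9, 79.7 and 98.3 CPM on soft and 125, 129 and 114 CPM on stiff substrates and fell by 0.46 (SE 0.064, adjusted p = 1.43e-06, 30 pool fits). Pim1 fell by 0.22 (adjusted p = 0.0141, 2 pool fits), a call lost without soft library 1, soft library 2 or stiff library 2 (adjusted p up to 0.208).

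Of 17 tested genes for secreted factors, 3 fell, 1 rose and 13 did not pass (median -0.22). The 3 were Csf1, Edn1 and Igf2, and the gene that rose was Trh, which encodes thyrotropin-releasing hormone, at 114, 104 and 121 CPM on soft and 77.9, 84.7 and 80.7 CPM on stiff substrates (0.48, SE 0.087, adjusted p = 0.000137, 12 pool fits). Its fitted change was between -0.017 and 0.80 over all 45 pool fits. Csf1, the macrophage growth factor (chromosome 3, 107741048-107760469), was at 5.87, 4.56 and 5.56 CPM on soft and 15.8, 13.2 and 17.1 CPM on stiff substrates, 2.89-fold higher on stiff. Its log2 fold change of -1.53 (SE 0.14, adjusted p = 3.27e-11) was the largest among genes with a mean of at least 5 CPM. Edn1, endothelin 1, a vasoconstrictor peptide, was at 1.28, 1.25 and 0.969 CPM on soft and 4.26, 4.16 and 2.78 CPM on stiff substrates (-1.69, SE 0.22, adjusted p = 1.81e-07). From the Nodal and TGF-beta list, Tgfb2, a ligand of the TGF-beta receptors, was at 4.69, 3.699 and 4.74 CPM on soft and 10.1, 8.94 and 11.2 CPM on stiff substrates (-1.20, SE 0.14, adjusted p = 2.82e-08). Csf1 and Tgfb2 are among the genes with the largest falls, taken only where the libraries did not overlap, so their separation is no result. From the Wnt list, Sfrp1, a secreted inhibitor of Wnt, went up on soft substrates, at 94.1, 89.1 and 86.02 CPM against 62.8, 57.1 and 64.6 CPM (0.54, SE 0.059, adjusted p = 4.03e-09).

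Imprinted genes, expressed from 1 parental copy, fell without exception among the calls. Of 24 tested, 8 fell and none rose (median -0.21), 3 to 6 in the pool fits. Peg10, a retrotransposon-derived gene needed for the placenta, was at 1957, 1719 and 1871 CPM on soft and 2923, 3152 and 2961 CPM on stiff substrates (-0.70, SE 0.064, adjusted p = 3.27e-11). The growth factor Igf2 was at 89.2, 78.01 and 89.3 CPM on soft and 132, 147 and 139 CPM on stiff substrates (-0.70, SE 0.096, adjusted p = 7.46e-07), and Peg3 fell by 0.41 (adjusted p = 6.68e-07). Grb10 fell by 0.36 (37 pool fits) and Cdkn1c, an inhibitor of cyclin-dependent kinases, by 0.63 (39 pool fits).

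Genes of oxidative phosphorylation and the ribosome passed no more often than all tested genes, of which 4.85% passed. Of 89 tested genes of oxidative phosphorylation 2 were higher and 1 lower (3.37%). Of 84 ribosomal protein genes none passed in edgeR's test and 2 passed in DESeq2. An unadjusted p under 0.05 was found for 9 of the 84, and for 15.7% of all tested genes. More passed among 30 tested genes of glycolysis and hypoxia, of which 8 fell and 2 rose (median -0.11), and the lower calls came to 4 without stiff library 2. Slc16a3, the lactate exporter MCT4, was at 50.3, 59.03 and 56.7 CPM on soft and 78.3, 91.9 and 75.4 CPM on stiff substrates (-0.56, SE 0.077, adjusted p = 8.66e-07), and of these 10 calls it alone held in all pool fits.

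The genes with the largest falls also included several outside the groups above. Pmp22, a tetraspan membrane protein of myelin and epithelia, was at 6.81, 6.15 and 5.35 CPM on soft and 15.1, 14.1 and 14.9 CPM on stiff substrates (-1.27, SE 0.15, adjusted p = 2.82e-08). Phldb2, which anchors microtubules near focal adhesions, was at 18.5, 17.4 and 13.7 CPM on soft and 33.8, 33 and 35.6 CPM on stiff substrates (-1.05, SE 0.10, adjusted p = 4.42e-10). Egfr, the EGF receptor, was at 10.8, 9.56 and 9.48 CPM on soft and 21.1, 18.4 and 17.5 CPM on stiff substrates (-0.95, SE 0.12, adjusted p = 7.03e-08), and Flt1, a VEGF receptor, fell by 0.998 (adjusted p = 2.83e-06). Genes named here for the size of their change were taken only where the libraries of the substrates did not overlap. Their separation by substrate is therefore no result. F5, coagulation factor V, fell by 1.04 (adjusted p = 8.57e-05, 3 pool fits). The small nucleolar RNA Snord17, which lies within the gene Snx5, fell by 1.33 (adjusted p = 0.00458, 1 pool fit) and was lost without soft library 2 or stiff library 2 (adjusted p up to 0.0918). Fermt1, kindlin 1, is from the integrin and focal adhesion list above. It had the largest change among the calls of that list, a fall by 1.16 (adjusted p = 3.04e-05, 15 pool fits).

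On the higher side, the genes with the largest changes came from several gene groups. Fbxo15, an F-box gene long used as a reporter of pluripotency, was at 53.9, 59.995 and 53.03 CPM on soft and 36.1, 33.6 and 39.1 CPM on stiff substrates (0.62, SE 0.077, adjusted p = 1.05e-07). Khdc3, also called Filia, a maternal factor that guards genome stability, was at 16.97, 13.2 and 15.8 CPM on soft and 8.11, 9.43 and 9.21 CPM on stiff substrates (0.79, SE 0.12, adjusted p = 8.33e-06, 44 pool fits). Stard8, a RhoGAP found at focal adhesions, was at 17.1, 18.5 and 16.9 CPM on soft and 11.4, 11.8 and 10.9 CPM on stiff substrates (0.62, SE 0.093, adjusted p = 4.95e-06). These genes too were taken only where the libraries of the substrates did not overlap, so their separation is no result. Fam81a rose by 0.65 (adjusted p = 1.34e-06) and Zfp607b by 0.71 (adjusted p = 7.19e-06). Sgms2, a sphingomyelin synthase, rose by 0.80 (22 pool fits), Sox21, a SOX factor, by 0.76 (30 pool fits), Cpsf4l by 0.67 (9 pool fits), Phf19, a Polycomb accessory protein, by 0.67 (21 pool fits) and Crabp1, a retinoic acid-binding protein, by 0.65 (15 pool fits). The calls of the last 3 genes under this rule rested on single libraries. Gm26035 rose by 0.98 (12 pool fits) and was lost without soft library 3 or stiff library 1 (adjusted p up to 0.0707), Srgn by 0.72 (12 pool fits) and was lost without stiff library 1 (adjusted p = 0.113), and Ly6a by 0.68 (26 pool fits) and was lost without stiff library 2 (adjusted p = 0.0703).

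Libraries from 24 h in serum + LIF offered a comparison of the same substrates within 1 sequencing pool, numbered 1, and shared no library with the serum comparison. Of the 858 genes called in serum at 48 h, 797 (92.9%) had the same sign at 24 h, 472 of the 490 lower and 325 of the 368 higher genes. Among all tested genes the share was 60.6%, and among those not called in serum it was 59.0%. At 24 h, 628 genes passed the test (3.55% of those tested, 1.03% higher and 2.52% lower). Of the genes called in serum, 313 were also called at 24 h in the direction seen in serum and 1, Utrn, in the reverse direction, a gene whose serum call held only without stiff library 3. The median change at 24 h was -0.28 for the genes lower in serum and 0.14 for those higher. Since the genes were chosen by their change in serum, a smaller median in another comparison, here or below, is no result. These libraries differ from the serum libraries in time as well as in medium.

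By group, all 12 contractile genes that fell in serum were also called lower at 24 h, as were 9 of the 10 YAP and TEAD genes, and 11 of the 12 naïve genes were also called higher. Acta2 changed by -1.06 at 24 h (adjusted p = 2.72e-08), Thbs1 by -1.09 (adjusted p = 1.24e-15) and Esrrb by 0.32 (adjusted p = 2.2e-06). Krt8 was lower by -0.92 at 24 h (adjusted p = 1.39e-12). By contrast, 1 of the 10 calls among glycolytic and hypoxia genes was also called at 24 h. Of the 27 pre-implantation calls, 24 had the same sign at 24 h and 7 were also called. Of the 45 post-implantation calls, all 45 had the same sign and 18 were also called. Over the whole clusters at 24 h, 8 pre-implantation genes were higher and 7 lower, and 1 post-implantation gene was higher and 29 lower. Edn1 changed by -0.31 at 24 h (adjusted p = 0.421), Slc16a3 by -0.18 (adjusted p = 0.267), Mt1 by -0.086 (adjusted p = 0.602), Stard8 by 0.02 (adjusted p = 0.961) and Fblim1 by 0.11 (adjusted p = 0.265), none of which passed. Whether these changes differ between the times was not tested.

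**Figure D4:**
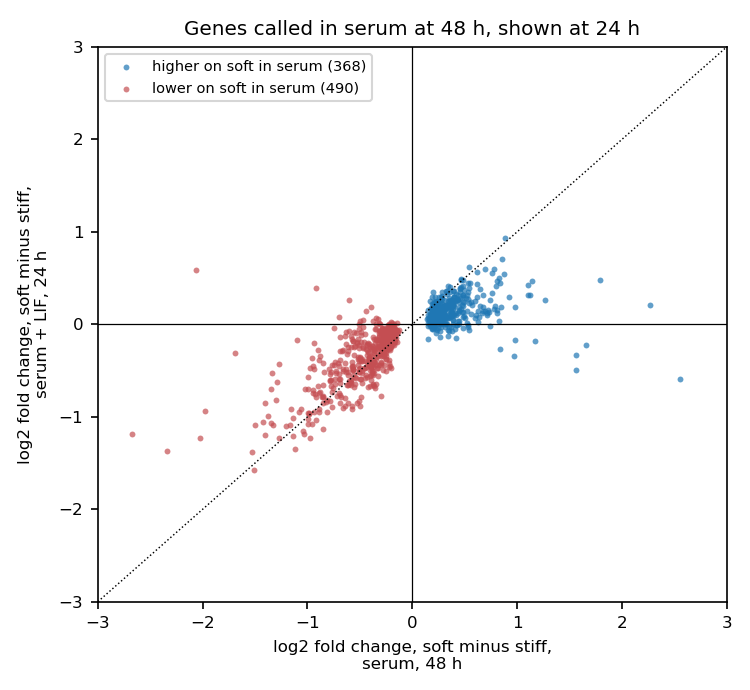
Log2 fold change, soft minus stiff, at 24 h in serum + LIF against that at 48 h in serum, 1 point for each of the 858 genes called in serum, with a dotted line where both are equal. Genes lower in serum (red, 490) lie below 0 at 24 h in 472 cases and genes higher in serum (blue, 368) above 0 in 325 cases, mostly with a smaller change.

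With LIF present at 48 h, 138 genes (0.78%) passed the test between soft and stiff substrates. Of the 858 genes called in serum, 91 were among them, none with the opposite sign. The same sign in serum + LIF, passed or not, was seen for 729 of the 858 (85.0%), against 55.4% of all tested genes and 53.9% of those not called in serum. All soft libraries of serum + LIF were in pool 3, and of the stiff libraries 2 were in pool 2 and 1 in pool 1. Pool and substrate therefore cannot be told apart in these shared signs either. The median change there was 0.12 for the genes higher in serum and -0.12 for those lower. The difference between the comparisons was itself tested, and 15 genes passed (0.0847% of those tested), 14 of which were called in serum. All 15 changed more, or with the opposite sign, in serum than in serum + LIF. This result was fragile. None of the 15 calls held without each of the 12 libraries in turn, none held in all pool fits, and 1 held in a fit to these 4 groups alone, Pou3f1. The count fell to 0 without soft library 1 or stiff library 1 of serum + LIF, to 1 without stiff library 2 of either medium, to 2 without soft library 2 of serum + LIF, to 5 or 6 without soft library 2, or soft library 1 or 3, of serum, and to 8 without stiff library 1 of serum, and it rose to 23 without stiff library 3 of serum and 124 without soft library 3 of serum + LIF.

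The genes that passed were spread over the groups above. Pou3f1 was at 48.6 ± 3.66 CPM on soft substrates against 81.1 ± 4.33 CPM on stiff ones in serum (mean ± SD, n = 3). With LIF it was at 42.3 ± 2.03 and 47.1 ± 1.38 CPM (n = 3), and the difference between the log2 fold changes was -0.58 (SE 0.12, adjusted p = 0.0375). Zyx was at 47.6 ± 4.44 CPM on soft substrates against 55.8 ± 2.9 CPM on stiff ones with LIF, a smaller gap than in serum (difference -0.47, adjusted p = 0.0365). Jam2 was at 179 ± 4.46 CPM on soft substrates against 161 ± 9.34 CPM on stiff ones with LIF (difference 0.38, adjusted p = 0.00612). Pim2 was at 82.3 ± 6.57 CPM on soft substrates against 78.2 ± 1.72 CPM on stiff ones with LIF, so that the gap seen in serum was not seen there (difference -0.53, adjusted p = 0.00612). Pim2 and Jam2 had the smallest p of the 15, and each held without 9 of the 12 libraries.

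Serum was also compared with serum + PD03, in which MEK is blocked. Of the 858 genes, 702 (81.8%) had the same sign in serum + PD03, against 56.5% of all tested genes and 55.3% of those not called in serum. The stiff libraries of serum + PD03 were all in pool 2, and of the soft libraries 4 were in pool 3 and 2 in pool 2. Pool and substrate were thus confounded in part, and the part of pool in the shared signs was not tested. Of the 858, 304 were called in serum + PD03 in that direction and 14 in the reverse, out of 982 calls (5.55%, 2.13% higher and 3.42% lower). Of the lower genes, 392 of 490 had the same sign there and 219 were called with it, and of the higher genes 310 of 368 and 85, a difference between directions that was not tested. The difference between serum and serum + PD03, tested against the same serum libraries as the difference from LIF, passed for 141 genes (0.797%), of which 97 were called in serum and 101 had opposite signs in the 2 media. Of the 141, 32 held without each of the 15 libraries in turn and 54 in all pool fits. The count came to 90, 49 and 85 without soft libraries 1, 2 and 3 of serum, to 91 without stiff library 2 of serum, and to 68, 85 and 68 without stiff libraries 1, 2 and 3 of serum + PD03.

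The 8 genes with the smallest p for this difference kept their call without every 1 library and in all pool fits. Mt1 was at 191 ± 8.43 CPM on soft substrates against 267 ± 23.4 CPM on stiff ones in serum (n = 3). In serum + PD03 the order turned, with 199.6 ± 9.76 CPM on soft substrates (n = 6) against 167 ± 6.77 CPM on stiff ones (n = 3), and the difference in log2 fold change was -0.75 (SE 0.085, adjusted p = 1.42e-07). Mt2 behaved alike (difference -0.75, adjusted p = 8.95e-07). Fabp3, a fatty acid-binding protein, was at 73.4 ± 3.46 CPM on soft substrates against 59.6 ± 4.06 CPM on stiff ones in serum, and at 239.6 ± 13.1 and 313 ± 9.37 CPM in serum + PD03 (difference 0.69, SE 0.083, adjusted p = 3.91e-07). Sh3pxd2a, the podosome scaffold TKS5, had the smallest p, at 58.7 ± 2.83 CPM on soft substrates against 48.7 ± 0.924 CPM on stiff ones in serum, and 54.1 ± 2.14 and 72.8 ± 3.79 CPM in serum + PD03 (difference 0.69, adjusted p = 4.49e-09). In both genes the higher substrate in serum was the lower in serum + PD03. The serum calls of Fabp3 (lost without stiff library 1, adjusted p = 0.0541), Sh3pxd2a, Bcor, Utrn and Zfp36l2 held in 18, 12, 21, 3 and 30 pool fits. The other 4 were AU015836 (difference 0.76), Bcor, a Polycomb corepressor (0.45), Utrn, utrophin (0.43), and Zfp36l2, an mRNA decay factor (-0.50).

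Of the 19 contractile genes, 12 were lower on soft substrates in serum and 15 in serum + PD03. Serum + PD03 had 6 soft and 3 stiff libraries against 3 and 3 in serum, so counts of calls in these media are not directly comparable. Of the 19, 1, Cald1, passed the test of the difference (-0.39, adjusted p = 0.0142). That call held in 42 pool fits and was lost without soft library 2 or stiff library 3 of serum, or stiff library 2 or 3 of serum + PD03 (adjusted p up to 0.0843). Of the 16 naïve genes, 5 passed that test, namely Prdm14 (0.73), Tbx3 (0.38), Klf2 (0.35), Nr5a2 (0.29) and Tfcp2l1 (0.27), each with a larger rise in serum. The calls of Tbx3 and Nr5a2 held without any 1 library and in all pool fits. Prdm14 was lost without stiff library 1 of serum (adjusted p = 0.0978) and held in all pool fits. Klf2 held in 38 and was lost without soft library 2, soft library 3 or stiff library 1 of serum (adjusted p up to 0.0906). Tfcp2l1 held in 11 pool fits and without 6 of the 15 libraries, and was lost without any soft library or stiff library 1 of serum, soft library 1 or 4 of serum + PD03, or any stiff library of serum + PD03 (adjusted p up to 0.164). Prdm14 was at 50.3 ± 2.43 CPM on soft substrates against 45.7 ± 2.599 CPM on stiff ones in serum + PD03, far above its level in serum on either substrate. Edn1 was at 4.29 ± 0.732 CPM on soft substrates against 4.24 ± 0.518 CPM on stiff ones in serum + PD03, and its difference of -1.68 (adjusted p = 0.000131) was the largest among the named genes.

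**Figure D5:**
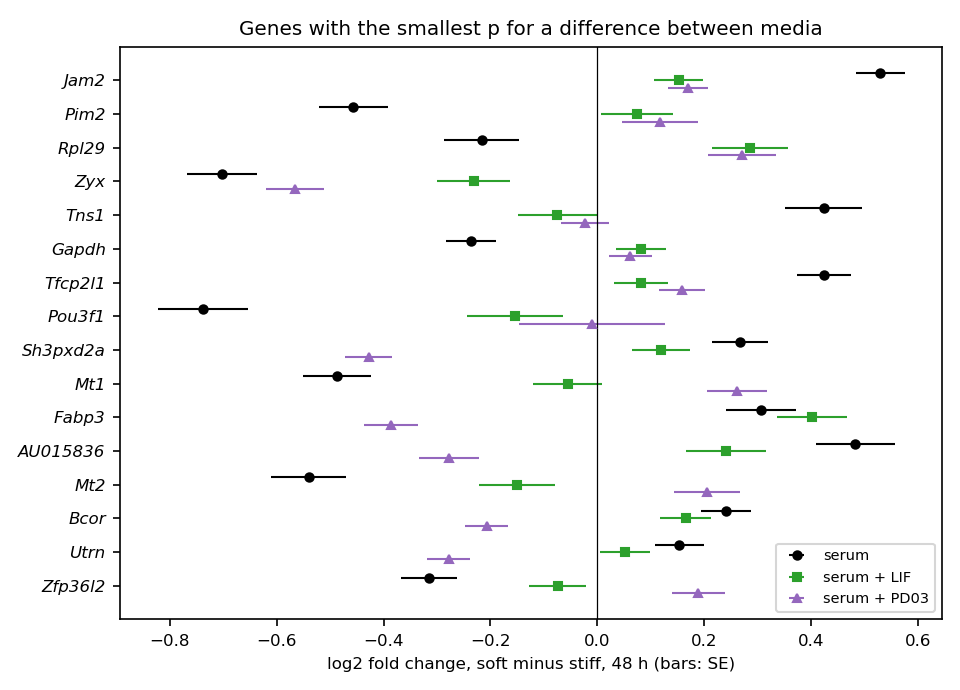
Log2 fold change, soft minus stiff, at 48 h with its SE in serum (black), serum + LIF (green) and serum + PD03 (purple) for the 16 genes with the smallest p for a difference between media. Jam2, Zyx, Tns1, Tfcp2l1 and Pou3f1 lie further from 0 in serum than with LIF, and Sh3pxd2a, Mt1, Fabp3, AU015836, Mt2, Bcor, Utrn and Zfp36l2 have opposite signs in serum and serum + PD03.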

How the data were processed

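RNA was sequenced from 36 libraries in 11 groups of mESCs on an Illumina HiSeq instrument. The authors deposited raw counts per gene, made by alignment to GRCm38 (mm10 in the submitters' processing notes, which name STAR 2.5.2a, HTSeq and DESeq) and counting with htseq-count over Ensembl genes. Whether counting used strand is not given in the sources used here, so reads of overlapping and antisense genes may not be told apart. The table holds 49671 genes, and all its columns were mapped to a group by name, with library numbers as names only. Nothing states that libraries of a group came from separate cultures, so p-values measure the spread between these samples, which may be technical.

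Genes were kept by edgeR's filterByExpr (17702 genes, 99.9% of counts) and scaled by TMM. CPM were computed from the deposited counts, with each library's total over the kept genes multiplied by its TMM factor. Differences were tested with edgeR 4.0.16 (quasi-likelihood, R 4.3.3, limma 3.58.1) over all 36 libraries with 1 coefficient per group, with p-values adjusted by the Benjamini-Hochberg method over all tested genes and called under 0.05. The difference between media was the interaction contrast. Alternatives were RLE scaling, DESeq2 1.42.0, no filter on low counts, the compared groups alone, each library left out, and sequencing pool (from the sample descriptions) as a term. Stiff serum + LIF and soft serum + PD03 each span 2 pools, and since their columns carry no replicate number, all 45 assignments of columns to pools were fitted. In simulated serum libraries with 17476 genes, 40%, 52%, 68% and 86% of genes changed by 1.3-, 1.5-, 2- and 3-fold were recovered (50 genes each), and 7 of 130 calls were false. The simulation held no pool effect and gave fewer calls than the data, so these shares need not hold for the real comparison. No pair of libraries agreed within sampling noise (chi-square per gene 4.0 to 6.75, and 10.3 and 13.4 for the pairs with stiff library 2).

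Members and lists were chosen with earlier results of these data known. The genes named were the 15 with the largest change in each direction (adjusted p under 0.05, mean of at least 5 CPM, no overlap between substrates), members of the lists, the 8 with the smallest p for each difference between media, and at most 4 promoters. For the 15 in each direction, separation of the libraries was a condition of the choice and is no further result. A result is not reported here. Gene coordinates are those of GENCODE M21 (GRCm38), and promoter windows are from RefSeq (GRCm38.p6).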

Additional observations from a re-analysis of the deposited data

Results flagged for a closer look

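The change between soft and stiff substrates differed between serum and serum + LIF, by a test of the difference itself, for 15 genes, each given here as the log2 fold change in serum minus that in serum + LIF. The gap was wider on the lower side in serum for Pou3f1 (-0.58), Thbs1 (-0.54), Sema6a (-0.63), Zyx (-0.47), Parva (-0.68), Pim2 (-0.53), Slc16a3 (-0.52), Peg10 (-0.41) and Mt1 (-0.43). Rpl29, a ribosomal protein (-0.50), and Gapdh, a glycolytic enzyme (-0.32), have many near-identical pseudogenes between which reads could be split. It was wider on the higher side in serum for Tns1 (0.50), Jam2 (0.38), Tfcp2l1 (0.34) and Kat6b, a histone acetyltransferase (0.28).

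The corresponding difference between serum and serum + PD03 passed for 141 genes, among them the following genes of the text. Genes whose change was more positive in serum were the naïve factors Prdm14 (0.73), Tbx3 (0.38), Klf2 (0.35), Nr5a2 (0.29) and Tfcp2l1 (0.27), the adhesion, junction and signalling genes Tns1 (0.45), Jam2 (0.36), Sfrp1 (0.29) and Hhip (1.17), and the genes Tfap2c (0.53), Lrrc34 (0.46), Fbxo15 (0.46), Stard8 (0.65), Fam81a (0.45), Zfp607b (0.59), Sgms2 (0.95), Ccnd2 (0.85), Kat6b (0.28), Utrn (0.43), Fabp3 (0.69), Sh3pxd2a (0.69), Bcor (0.45) and AU015836 (0.76). Genes whose change was more negative in serum were Edn1 (-1.68), Mt1 (-0.75), Mt2 (-0.75), Pou3f1 (-0.73), Slc16a3 (-0.64), Pim2 (-0.57), Pim1 (-0.38), Zfp36l2 (-0.50), Rpl29 (-0.49), Nes (-0.46), Cald1 (-0.39), Gapdh (-0.30) and Vim (-0.25). In each comparison the serum libraries of the 2 substrates came from different sequencing pools, which cannot be told apart from the substrate. Groups of 3 libraries were not tested for single outlying samples.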

How the results depend on the processing

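The 858 calls in serum became 173 to 384 with sequencing pool as a term, the higher calls 82 to 153 of 368 and the lower calls 91 to 231 of 490. A fit to these 6 libraries alone gave 607 calls, 226 higher and 381 lower. Leaving out 1 library gave 546 to 686 calls, 235 to 306 higher and 271 to 410 lower. The 15 genes that differed between serum and serum + LIF became 66 in DESeq2, 173 without the filter on low counts, 1 in a fit to these groups alone, 0 to 19 with pool as a term and 0 to 124 when 1 library was left out. The 141 genes that differed between serum and serum + PD03 became 306 in DESeq2, 222 without the filter, 76 to 124 with pool as a term and 49 to 137 when 1 library was left out. The share of called genes with the same sign at 24 h, 92.9%, became 90.6% without the filter, 89.1% to 97.4% with pool as a term and 90.0% to 94.1% when 1 library was left out. The cause of these shifts was not tested. Of 133 named genes called in serum, 133 passed in DESeq2, 132 with another scaling (RLE), 130 without the filter and 128 in the fit to the 6 libraries alone. The call held for 112 whichever library was left out. It held for 57 in both the pool fit with the lowest and the pool fit with the highest change of the gene. With pool as a term, the change of Lef1 reached 0.0216, that of Gm26035 -0.16 and that of Trh -0.0169, the only named genes called in serum that turned sign. No paired analysis was possible because the columns of the count table carry no replicate number. In the simulation, 40% of 1.3-fold changes were recovered, a share that need not hold for the data. A change of that size or smaller that did not pass may have gone undetected.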

Other observations

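Several gene groups gave calls that rested on few libraries. Of 19 tested Wnt pathway genes, 2 rose and 5 fell (median -0.019). Notum, a secreted Wnt inhibitor, rose by 0.38 (9 pool fits), and Wnt3, a ligand of the primitive streak, fell by 0.89 (0 pool fits) but was lost without soft library 2, soft library 3 or stiff library 2 (adjusted p up to 0.132). The lower count came to 2 without soft library 2, soft library 3 or stiff library 2 and to 3 without stiff library 3. Of 14 tested p53 targets, 5 fell and none rose (median -0.17), and the count came to 3 without soft library 1 and 2 without soft library 3 or stiff library 2. Mdm2, the ligase that degrades p53, fell by 0.23 (adjusted p = 0.00099, 12 pool fits) and Perp, a target at desmosomes, by 0.45 (adjusted p = 0.000299, 18 pool fits). Of 24 tested Nodal and TGF-beta genes, 2 rose and 2 fell, with Skil, a feedback repressor of SMADs, lower by 0.33 (adjusted p = 3.06e-06) in all pool fits. Pax6, a neural factor, rose by 0.43 (adjusted p = 0.0014, 6 pool fits), and Ccnd2, a G1 cyclin, by 0.42 (adjusted p = 1.7e-05, 9 pool fits).

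Some of the genes with less than 5 CPM on average, picked here after their values were seen, changed by more than 2-fold. Hhip, a decoy receptor of Hedgehog ligands, was at 6.41, 7.69 and 6.32 CPM on soft and 3.03, 3.54 and 2.71 CPM on stiff substrates (1.15, SE 0.18, adjusted p = 1.02e-05), and its call held without any 1 library and in all 45 pool fits. Prss23, a secreted protease, was at 1.97, 1.87 and 1.94 CPM on soft and 5.12, 5.69 and 4.54 CPM on stiff substrates (-1.40, adjusted p = 5.58e-06, 33 pool fits). Ccn4, a relative of Ccn1 and Ccn2, was at 2.37, 1.97 and 2.75 CPM on soft and 4.896, 5.55 and 5.21 CPM on stiff substrates (-1.13, adjusted p = 6.24e-05, 24 pool fits). Each of the 3 was separated by substrate in all 6 libraries.

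Single libraries stood apart for a few genes that did not pass, also picked after their values were seen. Hist1h4h, a replication-dependent histone gene with near-identical copies between which reads could be split, was at 50.2, 318 and 61.4 CPM in soft libraries 1 to 3 and 53.8, 487 and 425 CPM in stiff libraries 1 to 3, so that 1 soft and 2 stiff libraries held most of its counts (-1.15, adjusted p = 0.49). Gm21596 was at 1.27, 12.1 and 0.609 CPM in the stiff libraries and 1.38, 0.961 and 1.17 CPM in the soft libraries, the high value being that of stiff library 2. Of 62 tested clustered histone genes, 7 fell and none rose, a count that came to 1 without stiff library 2 and 2 without soft library 2.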
